A study of Mus musculus with 49 samples.

Results

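Hspa5, Hsp90b1, Pdia4, Sdf2l1, Creld2, Manf, Herpud1, Xbp1, Atf4 and Ddit3 are genes of the unfolded protein response, the programme that a cell switches on when unfolded proteins build up in its endoplasmic reticulum (ER). Their messenger RNA was followed in the urinary bladder of mice that drank arsenate, a pentavalent form of inorganic arsenic. The 10 genes were taken from a list, and each was read by a single probe set, a group of short DNA probes for 1 transcript. Where a gene had several probe sets that match no other gene, the brightest on average was used. All 10 genes were among the 14624 genes tested. Values are given as log2(signal + 16), on which a step of 1 is a 2-fold change well above the floor of 4.

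Whole bladders came from adult female C57Bl/J mice, and each of the 49 arrays held the RNA of 1 mouse. Drinking water carried arsenate at 0, 0.5, 2, 10 or 50 ppm, offered freely. Mice were killed after 1 week, at an age of 76 days, or after 12 weeks, at an age of 155 days. Each group had 5 mice except 0.5 ppm at 1 week, which had 4, and the mice on water alone are called the water group. All arsenate groups of a harvest were compared with that same water group, so the comparisons within a harvest share their controls. The mice of a group also share the first number of their label, whose meaning is not given, and dose cannot be told apart from it. A whole bladder mixes urothelium, muscle and connective tissue, so fewer cells of a type and less RNA per cell cannot be told apart.

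In the unfolded protein response, membrane sensors in the ER, among them PERK, IRE1 and ATF6, respond to unfolded protein. IRE1 splices the messenger RNA of Xbp1, ATF6 is cut to release a transcription factor, and PERK favours the translation of Atf4, which in turn raises Ddit3 (CHOP). XBP1 and ATF6 raise chaperones, folding enzymes and degradation factors, and many of their target promoters carry an ER stress element, a CCAAT box followed at a fixed distance by CCACG. Splicing, cleavage and translation were not measured here, only messenger RNA levels.

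The promoter sequences show which of the genes carry this element, and they are printed for the 2 genes that changed with dose and for the others with a match. RefSeq promoters (GRCm38.p6, 250 bases before to 50 after the start of each gene) were available for 9 of the 10 genes. The complete element, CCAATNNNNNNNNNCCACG on either strand, was found in 3 of these 9 (Hspa5, Hsp90b1 and Creld2) and in 39 of 32851 promoters (0.119%). Without its last base, CCAATNNNNNNNNNCCAC, which includes every complete match, it was found in 5 of 9, adding Pdia4 and Herpud1, and in 120 of all promoters (0.365%). The related element II, ATTGGNCCACG, was found in Herpud1 and in 12 of all promoters (0.0365%). The shorter form and element II were added after the promoters had been looked at. The stretches below run 5′ to 3′ along the gene and lie wholly before its start, with element matches in capitals. A match on the opposite strand reads as its reverse complement, so that CCAAT appears as ATTGG and CCACG as CGTGG. They lie at chr2:34772015-34772053 on the plus strand (Hspa5), chr10:86705523-86705666 on the minus strand (Hsp90b1), chr6:47813592-47813629 on the minus strand (Pdia4), chr15:88819510-88819548 on the plus strand (Creld2), chr8:94386367-94386428 on the plus strand (Herpud1) and chr16:17132386-17132419 on the minus strand (Sdf2l1).
Hspa5: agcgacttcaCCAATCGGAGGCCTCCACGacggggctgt
Hsp90b1: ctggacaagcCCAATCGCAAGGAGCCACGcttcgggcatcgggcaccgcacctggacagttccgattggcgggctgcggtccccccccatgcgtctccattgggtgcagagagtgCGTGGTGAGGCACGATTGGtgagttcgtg
Pdia4: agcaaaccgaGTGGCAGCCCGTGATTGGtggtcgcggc
Creld2: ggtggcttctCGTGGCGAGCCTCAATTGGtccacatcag
Herpud1: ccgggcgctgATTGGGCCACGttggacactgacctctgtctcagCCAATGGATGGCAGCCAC
Sdf2l1: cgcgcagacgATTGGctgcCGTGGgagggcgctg
Hsp90b1 held 2 complete elements, at 212 to 194 bases before the start and, on the opposite strand, at 107 to 89 bases before it. In Pdia4 the match lay 107 to 90 bases before the start, also on the opposite strand. Sdf2l1 held no element in any of these forms, and the capitals in its line mark only single CCAAT and CCACG boxes read on the opposite strand. The promoters of Xbp1, Atf4 and Ddit3 held none of the 3 forms. The unfolded protein response element TGACGTGG (222 promoters, 0.676%) and the C/EBP-ATF composite element TGATGCAAT (63 promoters, 0.192%) were found in 0 of the 9. A match describes the letters in this window and not a site of binding.

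Superficial urothelium and smooth muscle markers of the labelled tissue were high in every group. The 6 superficial urothelium markers (Upk1a, Upk1b, Upk2, Upk3a, Krt20 and Psca) had group means between 13.68 and 14.02, and 6 smooth muscle markers between 14.15 and 14.47. The 4 basal urothelium markers had group means between 8.55 and 9.11. Of these, Krt5 (13.33) and Trp63 (11.19) were high on average, and Krt14 (5.94) and Krt17 (4.93) were low. Markers of other tissues varied between groups. The mean of 8 liver markers (Alb, Serpina1b, Serpina1c, Fga, Plg, Apoa1, Ttr and Fabp1) was 9.21 in water and 6.66 at 50 ppm after 1 week, and lay between 6.25 and 6.58 in all groups at 12 weeks. The mean of 6 fibroblast markers (Col1a1, Col1a2, Col3a1, Pdgfra, Dcn and Lum) lay between 13.65 and 13.81 at 1 week and between 12.86 and 13.39 at 12 weeks. Spiked-in control RNA also moved with dose at 12 weeks: the poly-A controls, added before labelling, were lower than in water by 1.05 at 10 ppm and by 0.861 at 50 ppm on the log2 scale.

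The genes differed in how far their group means spread. The span between the lowest and highest of the 10 group means was 0.25 for Ddit3, 0.33 for Atf4, 0.35 for Xbp1, 0.39 for Herpud1 and 0.52 for Manf. It was wider for Hsp90b1 (0.59), Creld2 (0.73) and Hspa5 (0.9), and widest for Pdia4 (1.12) and Sdf2l1 (1.37). Probe sets of different genes bind with different strength, so their levels are not ranked against each other.

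**Figure D1:**
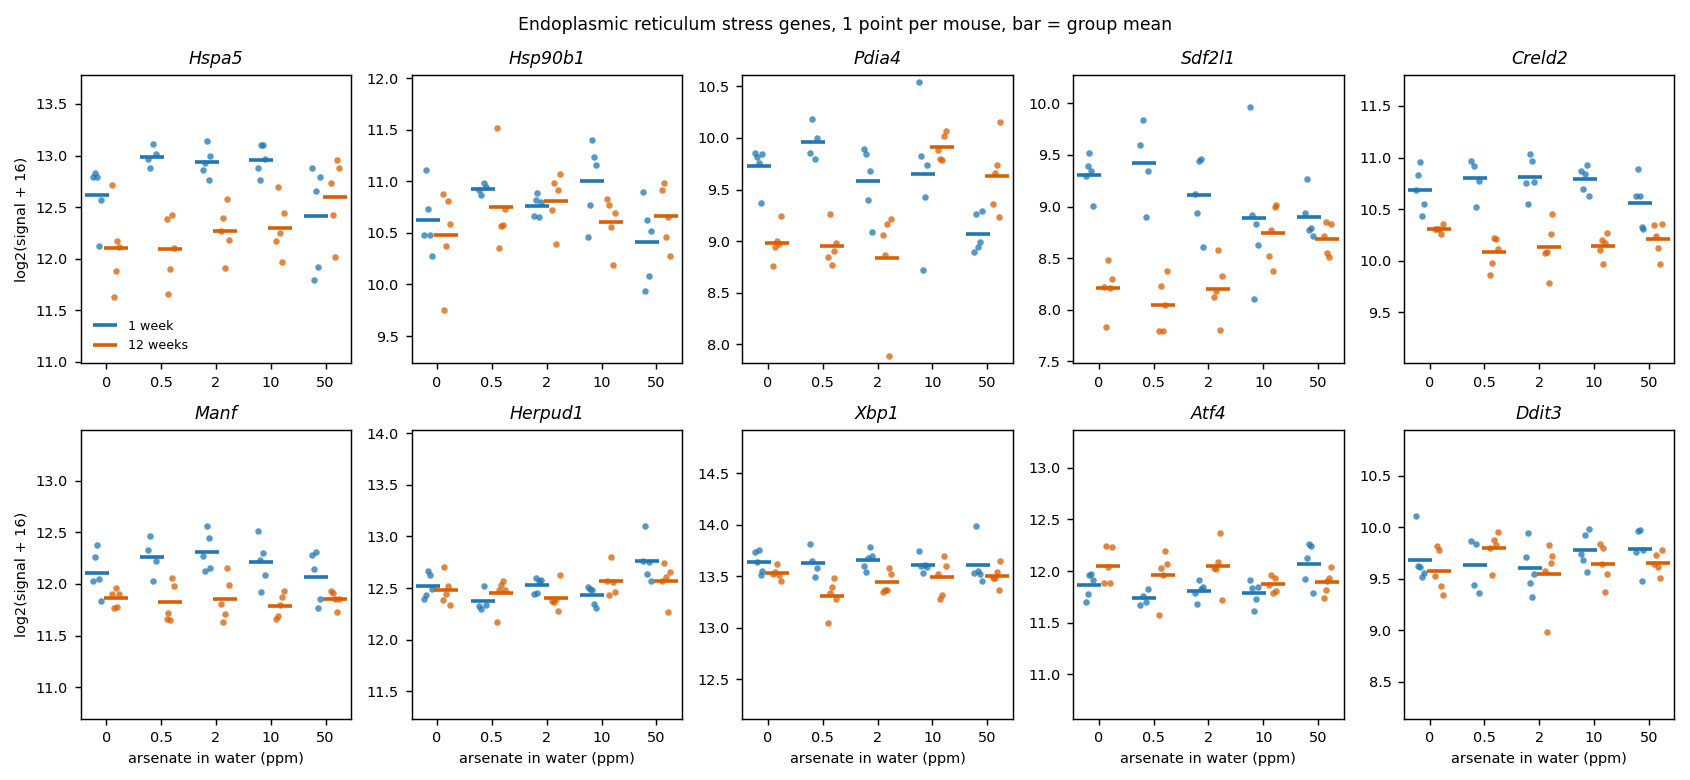
Each panel plots 1 of the 10 genes as log2(signal + 16) for every mouse against the arsenate dose in ppm, at 1 week (blue) and 12 weeks (orange), with bars at the group means and panels spanning the same height on the log2 axis. At 12 weeks the 5 mice on 10 ppm lie between 9.79 and 10.07 for Pdia4, above the 5 mice on water (8.76 to 9.24), while the group means of Ddit3, Atf4, Xbp1 and Herpud1 span 0.25 to 0.39.

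After 1 week no dose changed any of the 10 genes past the threshold, an adjusted p under 0.05 in limma over all 14624 genes (called, below). Of all genes, 0.0479% were called at 0.5 ppm, 0% at 2 ppm, 0.78% at 10 ppm and 0.335% at 50 ppm. At an unadjusted p under 0.05, 1, 0, 2 and 3 of the 10 passed, beside 12.5%, 5.93%, 17.1% and 11.5% of all genes. The smallest adjusted p of the 10 was 0.172, for Pdia4 at 50 ppm. The F test for any difference among the 5 doses (1.77% of all genes called), the slope over dose order, fitted per step from 1 dose to the next (0.267%), and the same slope without the water group (0.0547%) also called 0 of the 10. At an unadjusted p under 0.05, 5, 3 and 6 of the 10 passed these 3 tests, beside 19.3%, 9.72% and 13.1% of all genes. The F test at 1 week called up to 3 of the 10 when 1 array was left out: 3 without 50 ppm replicate 5, 2 without 10 ppm replicate 1 and 1 without 10 ppm replicate 3 or 50 ppm replicate 1. The RNA integrity number at 1 week averaged 9.28 in water and 9.25, 8.16, 8.73 and 9.38 at 0.5, 2, 10 and 50 ppm. It was as low as 7.2 at 2 ppm, and 2 arrays at 10 ppm have none. With this number in the fit, which drops those 2 arrays, Pdia4 was called lower at 50 ppm (-0.68, adjusted p 0.0324). At 10 ppm Sdf2l1 was then called lower (-0.81, adjusted p 0.031) and Hsp90b1 higher (0.61, adjusted p 0.0444).

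After 12 weeks Pdia4, on the brighter of its 2 probe sets, was called higher at 10 and 50 ppm. Pdia4 and Sdf2l1 had called upward slopes over dose order. Both means were at or below water at 0.5 and 2 ppm, and lower at 50 than at 10 ppm. The 50 ppm call of Pdia4 was lost when any 1 array was left out, as given below. At 0.5 ppm (0.527% of all genes called) and at 2 ppm (0.0137%) 0 of the 10 were called, with 2 and 0 of them at an unadjusted p under 0.05, beside 19% and 9.91% of all genes. At 10 ppm and at 50 ppm 1 of the 10 was called higher and none lower, beside 0.226% and 2.29% of all genes called higher. The F test called 2 of the 10 (4.94% of all genes). The slope called 2 higher (2.93% of all genes higher), and so did the slope without water (2.07%). The gene called at single doses was Pdia4, and the 2 genes called by the F test and by each slope were Pdia4 and Sdf2l1. The median change of the 10 genes was 0.07 at 10 ppm and 0.08 at 50 ppm against -0.03 and -0.036 over all genes.

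**Figure D2:**
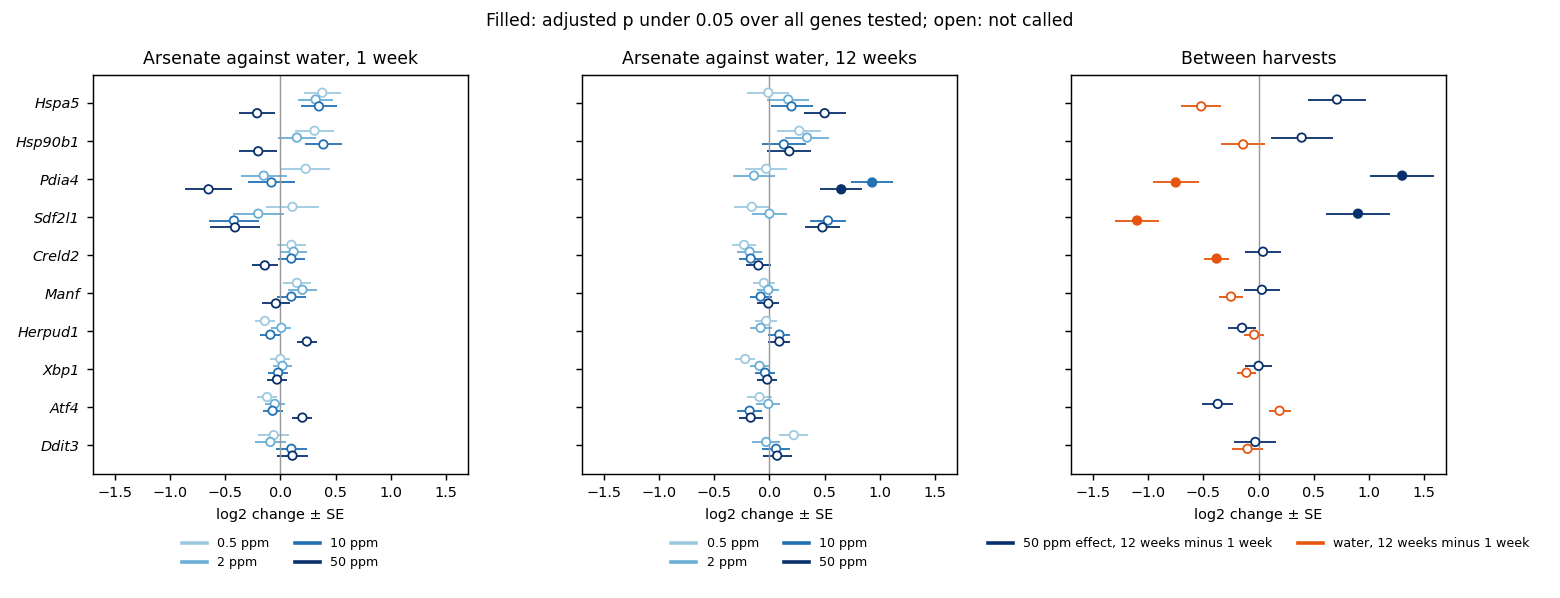
The log2 change of each of the 10 genes is plotted with its standard error for each dose against water at 1 week (left) and 12 weeks (middle), and for the contrasts between harvests (right), with filled points where the adjusted p over all genes was under 0.05. Filled points are seen for Pdia4 at 10 ppm (0.93) and 50 ppm (0.65) at 12 weeks and between harvests for Pdia4, Sdf2l1 and, in the water groups, Creld2.

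Pdia4 (protein disulfide isomerase A4, also known as ERp72) forms and rearranges disulfide bonds in proteins folding in the ER lumen. At 12 weeks the 5 water arrays read 8.76, 8.94, 9.0, 8.97 and 9.24. The 5 arrays at 10 ppm read 9.88, 9.80, 9.79, 10.02 and 10.07. At 50 ppm they read 9.36, 9.66, 9.74, 9.23 and 10.15. Every 10 ppm array was above every water array. Of the 10 genes, 1 did not overlap with water at 10 ppm, beside 3.2% of all genes. At 50 ppm all 5 arrays were above the water mean of 8.98, while the lowest fell just inside the range of water. The rise was 0.93 ± 0.19 (SE, 5 against 5 arrays, adjusted p 0.0235 in limma), or 1.91-fold, at 10 ppm and 0.65 ± 0.19 (adjusted p 0.0471), or 1.56-fold, at 50 ppm.

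At the lower doses of the 12-week harvest Pdia4 stayed near water. It had a mean of 8.95 at 0.5 ppm and 8.84 at 2 ppm, and 1 array at 2 ppm was as low as 7.89. The change against water was -0.03 ± 0.19 and -0.14 ± 0.19. Over the dose order the slope was 0.23 ± 0.05 per step (adjusted p 0.0175 in limma), and without water it was 0.31 ± 0.08 (adjusted p 0.0306).

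At 1 week Pdia4 ran the other way at the top dose. The water arrays read 9.85, 9.82, 9.76, 9.37 and 9.84, and those at 50 ppm read 8.89, 9.26, 8.94, 8.99 and 9.29. The 2 groups did not overlap, as was so for 2.52% of all genes, and the change of -0.65 ± 0.21 was not called (adjusted p 0.172 in limma). The liver marker mean was 9.21 and 6.66 in these groups. With that mean in the fit, calls among all genes at 50 ppm after 1 week fell from 49 to 2. The Pdia4 harvest difference given next was 1.36 with the liver marker mean in its fit (adjusted p 0.023). Whether the liver markers had a part in the Pdia4 change at 1 week was not tested. At 10 ppm the 5 arrays were spread from 8.72 to 10.54, the widest spread of any Pdia4 group. The 50 ppm effect at 12 weeks minus that at 1 week was 1.30 ± 0.29 (adjusted p 0.00658).

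The 2 calls of Pdia4 against water at 12 weeks were not firm. When any 1 of the 10 arrays was left out, the 50 ppm call was lost (adjusted p 0.0536 to 0.11 in limma, change 0.52 to 0.75). The 10 ppm call was lost in 6 of 10 such fits, without water replicate 2, 3 or 4 or 10 ppm replicate 1, 2 or 5 (change 0.88 to 1 over the 10 fits, adjusted p up to 0.0767). The slope over all doses was kept in 25 of 25 such fits, and the slope without water in 16 of 20, being lost without 0.5 ppm replicate 3, 4 or 5 or 50 ppm replicate 5. The difference between harvests was kept in 20 of 20, with values from 1.17 to 1.40.

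A second Pdia4 probe set ran the opposite way. It was dim, with a mean of 5.65 against 9.42 for the brighter one, and its group means at 12 weeks were 6.44 in water, 5.79, 5.77 and 5.72 at 0.5, 2 and 10 ppm, and 5.19 at 50 ppm. With all probe sets tested, its change at 50 ppm was -1.25 ± 0.31 (adjusted p 0.0307 in limma). Its slope over all doses at 12 weeks was -0.26 ± 0.07 (adjusted p 0.0338). Its difference between harvests was -1.71 ± 0.52 (adjusted p 0.035). In the water groups it was higher at 12 weeks than at 1 week by 1.08 ± 0.37 (adjusted p 0.0408). In the same fit the brighter probe set had an adjusted p of 0.0503 at 50 ppm. The statements on Pdia4 above therefore hold for the brighter probe set.

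Sdf2l1 (stromal cell-derived factor 2 like 1) works with HSPA5 and its cochaperones in the ER lumen. At 12 weeks its water arrays read 8.22, 7.83, 8.48, 8.21 and 8.30. At 10 ppm they read 8.52, 8.77, 8.38, 9.0 and 9.02, and at 50 ppm 8.71, 8.85, 8.55, 8.51 and 8.83. The 50 ppm arrays were all above the highest water array, and 5.85% of all genes did not overlap in that comparison. The 10 ppm arrays overlapped water in 1 array, while the means at 0.5 ppm (8.05) and 2 ppm (8.20) were at or below that of water (8.21). Single doses were not called, with 0.53 ± 0.16 at 10 ppm (adjusted p 0.111 in limma) and 0.48 ± 0.16 at 50 ppm (adjusted p 0.0762). The slope was 0.17 ± 0.04 per step (adjusted p 0.0175) and 0.25 ± 0.05 without water (adjusted p 0.0129), and these calls were kept in 25 of 25 and 20 of 20 fits that left out 1 array.

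At 1 week the Sdf2l1 means went from 9.31 in water and 9.42 at 0.5 ppm to 9.11, 8.89 and 8.90 at 2, 10 and 50 ppm. At 10 ppm 1 array read 9.97 and the other 4 lay between 8.10 and 8.92. Without that array (replicate 1) the change at 10 ppm went from -0.42 to -0.69 and was called (adjusted p 0.0462 in limma). The difference between the 50 ppm effects of the harvests was 0.90 ± 0.29 (adjusted p 0.0459), a call that was lost in 14 of 20 fits that left out 1 array (0.80 to 0.99, adjusted p up to 0.107). It was kept without water replicate 5 or 50 ppm replicate 1 or 2 of 1 week, and without water replicate 1 or 3 or 50 ppm replicate 3 of 12 weeks. With the liver marker mean in the fit it was 0.59 (adjusted p 0.261).

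Spiked-in controls moved with the 2 genes at 12 weeks. The poly-A controls averaged 10.81 in water, 10.43 at 0.5 ppm, 10.33 at 2 ppm, 9.763 at 10 ppm and 9.953 at 50 ppm, and the hybridization controls were higher than in water by 0.542 at 10 ppm and 0.494 at 50 ppm. Within groups, over 49 arrays, the poly-A controls had an r of 0.06 with Pdia4 and of -0.15 with Sdf2l1, given as a description. With the poly-A level in the fit, the Pdia4 change was 1.34 (adjusted p 0.0528 in limma) at 10 ppm and 0.98 (adjusted p 0.175) at 50 ppm. With the hybridization level it was 0.79 (adjusted p 0.106) and 0.52 (adjusted p 0.15). All slope calls of both genes were lost in both fits (adjusted p 0.131 to 0.492). In the poly-A fit the slopes stayed close to those given above, at 0.22 and, without water, 0.27 for Pdia4 and 0.15 and 0.23 for Sdf2l1, and the genes called among all 14624 fell from 769 to 0 and, without water, from 523 to 0. In the hybridization fit the slopes were 0.13 and 0.21 for Pdia4 and 0.12 and 0.20 for Sdf2l1, and the genes called fell to 168 and 80. The Pdia4 difference between harvests was called in both (1.36 and 1.31).

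**Figure D3:**
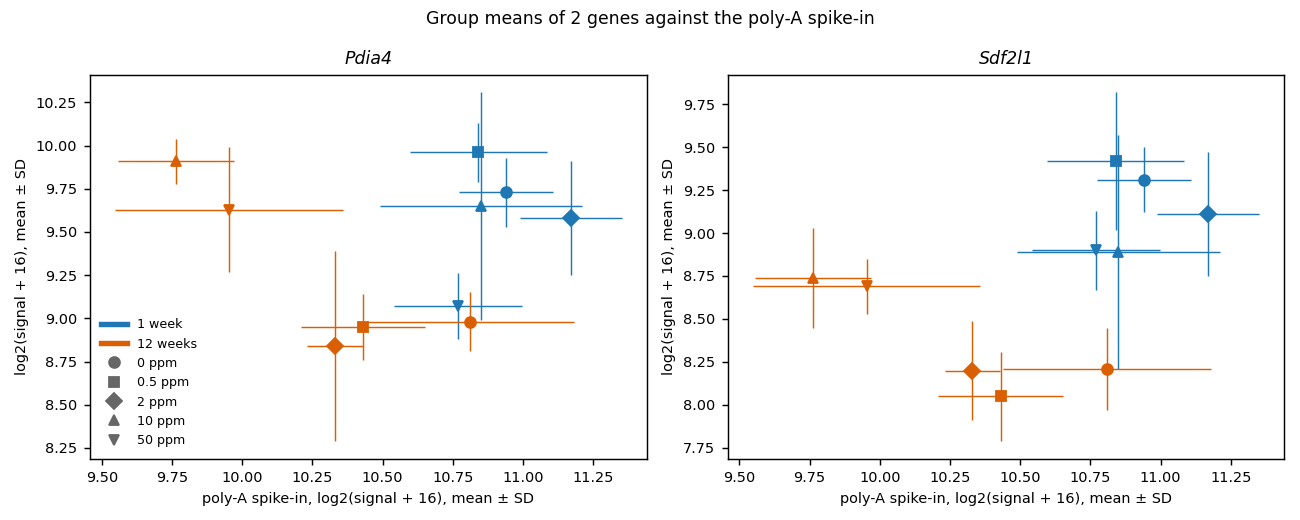
Group means of Pdia4 (left) and Sdf2l1 (right) are plotted against the mean of the poly-A spike-in controls, all as log2(signal + 16) with SD bars, at 1 week (blue) and 12 weeks (orange), with 1 marker shape per dose. The 10 and 50 ppm groups at 12 weeks have the lowest spike-in means (9.763 and 9.953) and, among the 12-week groups, the highest means of both genes.

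Hspa5 (BiP, also called GRP78), the ER's main HSP70 chaperone and a brake on the stress sensors, came closest to a call with dose at 12 weeks among the other 8 genes. At 12 weeks the water arrays read 12.71, 11.63, 11.88, 12.17 and 12.11, and those at 50 ppm read 12.73, 12.42, 12.02, 12.96 and 12.88. The groups overlapped, mainly through 1 high water array (replicate 1) and 1 low array at 50 ppm (replicate 3). The change was 0.50 ± 0.19 (adjusted p 0.102 in limma). Without 1 or the other of these arrays it was 0.65 and called, with an adjusted p of 0.0246 without the water array and 0.0469 without the 50 ppm array. Its other 2 probe sets gave 0.39 ± 0.18 (adjusted p 0.202) and 0.19 ± 0.14 (adjusted p 0.426).

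Hspa5 means at 12 weeks were 12.10, 12.09, 12.27, 12.30 and 12.60 from water to 50 ppm, with a slope of 0.12 ± 0.04 per step (adjusted p 0.074 in limma). The slope was called without water replicate 1 (0.15, adjusted p 0.015), 0.5 ppm replicate 1 (0.13, adjusted p 0.0414), 10 ppm replicate 4 (0.13, adjusted p 0.0466) or 50 ppm replicate 3 (0.14, adjusted p 0.036). With all probe sets tested, the other 2 Hspa5 probe sets had slopes of 0.05 ± 0.04 (adjusted p 0.475) and 0.03 ± 0.03 (adjusted p 0.642). At 1 week the means were 12.62 in water, 12.99, 12.94 and 12.96 at 0.5, 2 and 10 ppm, and 12.41 at 50 ppm. The 50 ppm arrays at 1 week were split, with 11.79 and 11.92 in 2 mice and 12.66 to 12.88 in the other 3. The difference between the 50 ppm effects of the harvests was 0.71 ± 0.26 (adjusted p 0.0775). On the other 2 probe sets it was 0.46 ± 0.26 (adjusted p 0.272) and 0.22 ± 0.16 (adjusted p 0.432).

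Hsp90b1 (GRP94), the ER's HSP90 chaperone, was not called at any dose. At 12 weeks its means lay between 10.48 (water) and 10.81 (2 ppm), and the water arrays alone spanned 9.75 to 10.88. At 1 week the means lay between 10.41 (50 ppm) and 11.00 (10 ppm). The change at 50 ppm was -0.20 ± 0.17 at 1 week (adjusted p 0.688 in limma) and 0.18 ± 0.20 at 12 weeks (adjusted p 0.607).

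Creld2 and Manf are small ER proteins, and MANF is also secreted. Neither moved with dose: at 50 ppm after 12 weeks Creld2 was at -0.10 ± 0.11 and Manf at -0.01 ± 0.10 against water (adjusted p 0.586 and 0.958 in limma). Creld2 read 10.31, 10.31, 10.31, 10.26 and 10.36 in the 12-week water group, and 9.86, 9.98, 10.22, 10.21 and 10.11 at 0.5 ppm. These 2 groups did not overlap, as was so for 3.95% of all genes, and the change of -0.23 ± 0.11 was not called (adjusted p 0.23 in limma). Manf at 12 weeks had means between 11.79 and 11.86 at all 5 doses, the narrowest range of the 10 genes at that harvest.

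Herpud1, a membrane protein of ER-associated degradation, was highest at 50 ppm after 1 week. The arrays there read 12.76, 13.10, 12.64, 12.75 and 12.57, against 12.39, 12.43, 12.67, 12.63 and 12.49 in water. All 5 were above the water mean of 12.52, but the groups overlapped and the change of 0.24 ± 0.09 was not called (adjusted p 0.233 in limma). The second Herpud1 probe set gave 0.30 ± 0.10 there (adjusted p 0.142). At 12 weeks the change at 50 ppm was 0.09 ± 0.10 (adjusted p 0.588).

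The 3 transcription factors did not pass the threshold at any dose. Xbp1 was at -0.03 ± 0.09 at 1 week and -0.02 ± 0.09 at 12 weeks at 50 ppm (adjusted p 0.94 and 0.885 in limma). Atf4 was at 0.20 ± 0.09 and -0.17 ± 0.11 (adjusted p 0.344 and 0.361), and the difference between harvests was -0.37 ± 0.14 (adjusted p 0.0881). Without 50 ppm replicate 5 at 1 week that difference was -0.44 and called (adjusted p 0.036), and without water replicate 1 at 12 weeks it was -0.41 and called (adjusted p 0.0487). Ddit3, whose product CHOP promotes cell death under lasting stress, was at 0.11 ± 0.14 and 0.07 ± 0.13 (adjusted p 0.821 and 0.767), with arrays from 9.51 to 9.78 at 50 ppm and from 9.34 to 9.82 in water after 12 weeks.

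Comparing the 50 ppm effect of 12 weeks with that of 1 week called 2 of the 10 genes higher, Pdia4 and Sdf2l1, beside 3.6% of all genes called higher. In both, the arsenate mean was below water at 1 week and above it at 12 weeks. Hspa5 and Hsp90b1 had the same signs without a call, and Herpud1, Xbp1, Creld2 and Manf had differences between -0.15 and 0.04.

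The 2 water groups differed from each other in some of the same genes. Of the 10, 3 were lower at 12 weeks than at 1 week, beside 7.09% of all genes called lower, and 0 were higher. Sdf2l1 read 9.30, 9.39, 9.52, 9.34 and 9.01 at 1 week, all above the highest of the 12-week water arrays (8.48), a fall of 1.10 ± 0.20 on the log2 scale (adjusted p 2.38e-04 in limma). Pdia4 was lower by 0.75 ± 0.21 (adjusted p 0.0111), also without overlap, on its brighter probe set. The dim probe set of Pdia4 was called higher, by 1.08 ± 0.37 (adjusted p 0.0408 in limma with all probe sets tested). The share of all genes without overlap was not counted for this contrast. Creld2 read 10.69, 10.83, 10.96, 10.43 and 10.55 at 1 week, all above the highest 12-week array (10.36), and was lower by 0.38 ± 0.11 (adjusted p 0.0191). The Creld2 call was lost without replicate 2 or replicate 3 of the 1-week water group, with adjusted p up to 0.0837.

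Hspa5 was lower by 0.52 ± 0.18 at 12 weeks (adjusted p 0.0523 in limma) and was called without water replicate 4 of 1 week (-0.64, adjusted p 0.0219) and without water replicate 1 of 12 weeks (-0.67, adjusted p 0.0109). Its other 2 probe sets gave -0.39 ± 0.18 (adjusted p 0.163) and -0.23 ± 0.12 (adjusted p 0.189). Manf was at -0.25 ± 0.11 (adjusted p 0.141), and Hsp90b1, Herpud1, Xbp1, Atf4 and Ddit3 lay between -0.14 and 0.19. Age, length of stay, harvest and the first number of the label cannot be told apart in this contrast. In the water groups the hybridization controls averaged 11.9 at 1 week and 11.46 at 12 weeks, and the poly-A controls 10.94 and 10.81. Liver markers averaged 9.21 at 1 week and 6.5 at 12 weeks in the water groups, and fibroblast markers 13.81 and 12.97. With the liver marker mean in the fit all 3 calls were lost (Sdf2l1 -0.74 with adjusted p 0.224, Pdia4 -0.81 with adjusted p 0.201, Creld2 -0.13 with adjusted p 0.769), and the genes called among all 14624 fell from 1953 to 50.

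The highest 12-week group means of Pdia4 and Sdf2l1 did not exceed the highest of 1 week. Pdia4 reached 9.91 at 10 ppm after 12 weeks, against 9.73 in water and 9.96 at 0.5 ppm after 1 week. Sdf2l1 reached 8.74 at 10 ppm after 12 weeks, below all 5 group means of 1 week (8.89 to 9.42).

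The 10 genes did not vary as 1 block between mice. After subtraction of group means, over 49 arrays, Creld2 went with Xbp1 (r = 0.69) and Manf (0.68), Pdia4 with Sdf2l1 (0.66) and Hspa5 with Hsp90b1 (0.64). Sdf2l1 also went with Manf (0.59). Between Hspa5 or Hsp90b1 and the other 8 genes r was at most 0.17 and often negative: -0.28 between Hspa5 and Pdia4, -0.41 between Hsp90b1 and Pdia4, -0.51 between Hspa5 and Herpud1 and -0.58 between Hsp90b1 and Atf4. The median r over pairs of 1463 of the genes tested was 0. These values describe arrays that share scaling, RNA quality and cell composition.

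Between the 10 group means the picture differed. Hspa5 had an r of 0.70 with Pdia4, 0.83 with Sdf2l1 and 0.88 with Manf, and Creld2 and Manf had 0.98. Atf4 ran against the lumenal genes, with -0.88 for Pdia4 and -0.84 for Hspa5. The 10 group means contain the difference between harvests, which all of these values share.

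**Figure D4:**
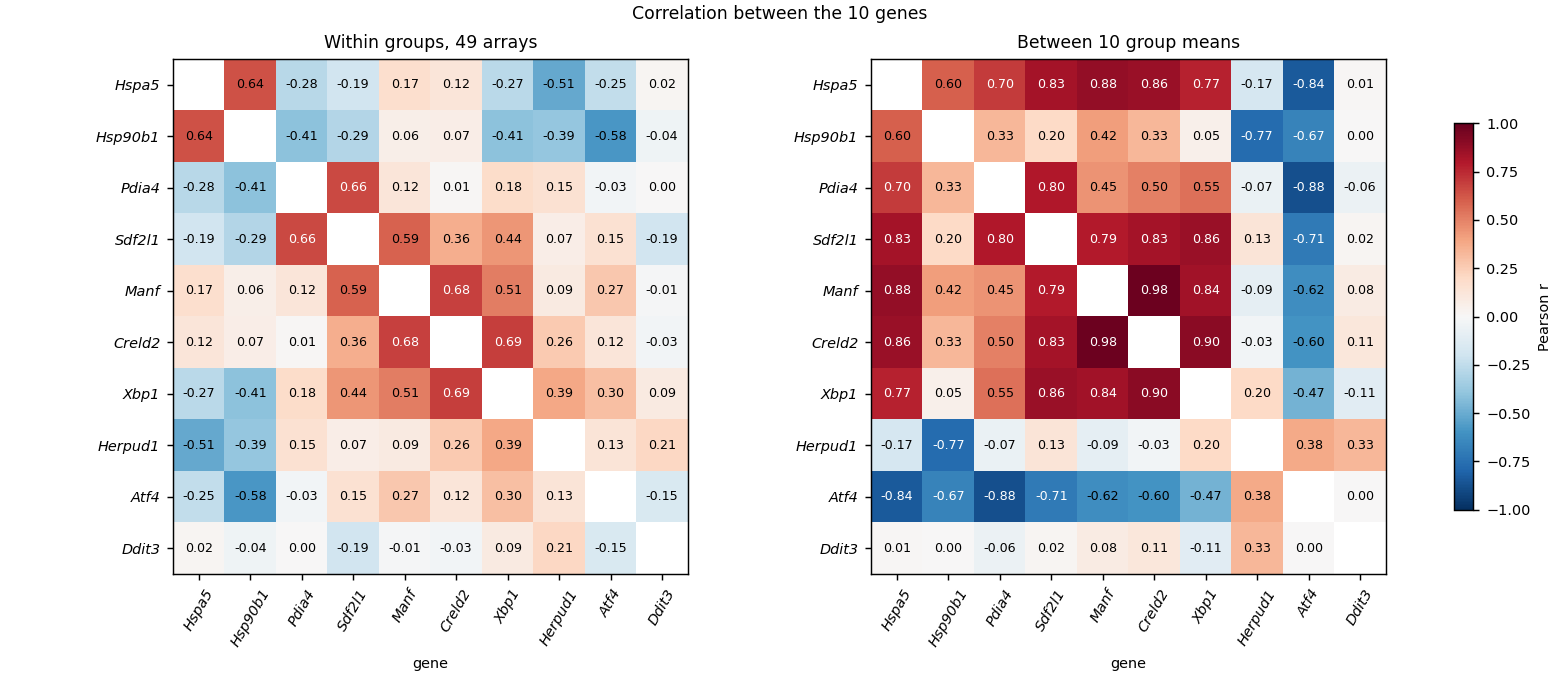
Pearson r between the 10 genes is coloured and printed for each pair, after subtraction of group means over 49 arrays (left) and between the 10 group means (right). On the left Hspa5 and Hsp90b1 pair with each other (0.64) and Pdia4 with Sdf2l1 (0.66), while on the right Hspa5 and Sdf2l1 reach 0.83.

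The genes most like Hspa5 within groups, of all genes tested, were Pla2r1 (r = 0.81), Spcs3 (0.80), Gfpt1 (0.79), Sarnp (0.79) and Nras (0.79). Spcs3 is a subunit of the signal peptidase and Gfpt1 the first enzyme of the hexosamine pathway. Those most like Pdia4 were Mms22l (0.73), Hnrnpl (0.72), Gatd1 (0.64), Decr2 (0.64) and St3gal4 (0.64). The 10 genes themselves were left out of this search.

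The wider ER pathway was read through 6 lists with 104 further genes, of which 100 were measured. At 50 ppm after 12 weeks 2 of these 100 were higher and 3 lower, near the 2.29% and 1.77% of all genes called, with a median change of -0.02 against -0.036 over all genes. Sec63, a translocation cochaperone (0.53 ± 0.15), and Ube2j1, a ubiquitin-conjugating enzyme of ER-associated degradation (0.33 ± 0.10), rose. Ern1, which encodes the sensor IRE1 (-0.46 ± 0.10, adjusted p 0.0222 in limma), Kdelr1, a retrieval receptor (-0.43 ± 0.11), and Creld1 (-0.33 ± 0.09) fell. Among all 14624 genes, calls in this comparison fell from 594 to 1 with the poly-A level in the fit. The list genes were not looked up singly in that fit. At 10 ppm after 12 weeks, and at 10 and 50 ppm after 1 week, 0 of the 100 were called, with 25, 20 and 7 at an unadjusted p under 0.05, beside 16%, 17.1% and 11.5% of all genes. At 0.5 ppm after 12 weeks 1 of the 100, Sec63, was called higher (0.64 ± 0.15), beside 0.335% of all genes. Sec63 means at 12 weeks were 8.82 in water and 9.46, 8.96, 9.35 and 9.35 at 0.5, 2, 10 and 50 ppm. In water at 1 week its mean was 9.22.

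Ern1 fell with dose at 12 weeks, while Pdia4 and Sdf2l1 had upward slopes, with means above water only at 10 and 50 ppm. Its means at 12 weeks were 10.60, 10.57, 10.49, 10.33 and 10.14 from water to 50 ppm, and the slope was -0.12 ± 0.02 per step (adjusted p 0.00761 in limma). At 1 week its means lay between 10.19 and 10.37. The slope at 12 weeks called 3 of the 100 higher (Canx, Erlec1 and Ddost) and 6 lower, beside 2.93% and 2.33% of all genes. The largest falls were those of Ppp1r15a (-0.13), which undoes the translation block set by PERK, Ern1, Calr (-0.11), the chaperone calreticulin, and Kdelr1 (-0.10). The slope without the water group called 3 of the 100 higher and 1 lower, beside 2.07% and 1.51% of all genes. Those higher were Kdelr2 (0.16), Ddost (0.14) and Rpn1 (0.13), and the lower was Ern1 (-0.15). From water to 50 ppm the Kdelr2 means were 12.48, 12.24, 12.24, 12.68 and 12.63. Those of Rpn1 were 13.14, 12.85, 12.96, 13.31 and 13.15. Neither Kdelr2 nor Rpn1 was called by the slope that includes water. All these slope calls were lost with the poly-A level in the fit, where 0 of all 14624 genes were called by either slope. Of the 22 measured ATF4 and CHOP outputs, 0 were called at 10 or 50 ppm after 12 weeks, with 7 and 4 at an unadjusted p under 0.05, beside 16% and 24.1% of all genes. Their median change was -0.10 and -0.11, against -0.03 and -0.036 over all genes.

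Between harvests the 50 ppm effect differed upward in 3 of the 100 and downward in 4, beside 3.6% and 3.75% of all genes. Among all 14624 genes, calls in this contrast fell from 1076 to 92 with the poly-A level in the fit. For the 100 genes the main fit is given. It differed upward in Dnajc3 (0.76 ± 0.22) and Dnajb9 (0.67 ± 0.21), both cochaperones of HSPA5, and in Ube2j1 (0.55 ± 0.15). It differed downward in Syvn1, the ubiquitin ligase of ER-associated degradation (-0.69 ± 0.17), Sesn2 (-0.64 ± 0.20), Ern1 (-0.60 ± 0.16) and Creld1 (-0.51 ± 0.13). Dnajb9 means were 11.00 in water and 10.79 at 50 ppm at 1 week, and 10.99 and 11.45 at 12 weeks.

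Between the water groups 5 of the 100 were higher and 15 lower at 12 weeks, beside 6.26% and 7.09% of all genes. The largest falls were those of Kdelr3, a retrieval receptor (-1.59 ± 0.22), Trib3 (-0.85 ± 0.28), Creb3l1, an ER-bound transcription factor of collagen-secreting cells (-0.85 ± 0.20), and Fkbp14, a collagen-folding enzyme (-0.84 ± 0.16). The largest rises were those of Atf3 (1.45 ± 0.47), Sesn2 (0.70 ± 0.14), Ern1 (0.37 ± 0.11) and Cars (0.35 ± 0.10). The fibroblast marker mean was also lower in the 12-week water group, as given above, and their part in it was not tested for these genes. With the fibroblast mean in the fit the water differences were larger: Sdf2l1 (-1.62) and Pdia4 (-1.27) were still called, and Creld2 (-0.53, adjusted p 0.0801 in limma) was not.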

How the data were processed

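RNA of single bladders was read on Affymetrix 1-colour arrays. The authors deposited a linear intensity for every probe set, and GCOS 1.0 is named per the submitters' processing notes, with settings not given in the sources used here. Every array had a 2% trimmed mean of 500.003 to 500.004. The deposited intensity values were used as log2(intensity + 16) without further scaling. Probe sets with a single gene covered 18194 genes. The brightest per gene was kept where 4 or more arrays placed it above their 40th percentile, which left 14624 genes.

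Each harvest was fitted alone (24 and 25 arrays) with limma 3.58.1 in R 4.3.3 (lmFit, eBayes with a trend), and contrasts between harvests used all 49 arrays. Called means a Benjamini-Hochberg adjusted p under 0.05, and the fits were tested on simulated data. The p-values set a difference between groups against the spread between mice within groups. They do not cover a difference tied to the first label number that the mice of a group share. The number of arrays limits the precision. The 10 genes, the lists, the markers and the tests were chosen with earlier results of these data known. Named list genes are, per contrast, up to 4 largest called changes each way. Alternatives were another offset, quantile normalization, other filters, all probe sets, 1 fit for all arrays, array weights, a replicate block, covariates and leaving out arrays.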

Additional observations from a re-analysis of the deposited data

Results flagged for a closer look

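In 6 of 100 groups of member values 1 array lay apart from the others by Dixon's test, which chance does in about 1 in 20 groups. For Pdia4 these were water replicate 4 at 1 week (9.37, the next being 9.76) and 2 ppm replicate 4 at 12 weeks (7.89, the next being 8.87). For Herpud1 they were 0.5 ppm replicate 4 at 1 week (12.52, the next being 12.34) and 0.5 ppm replicate 1 at 12 weeks (12.17, the next being 12.48). For Xbp1 it was 50 ppm replicate 2 at 1 week (13.99, the next being 13.55), and for Ddit3 water replicate 1 at 1 week (10.11, the next being 9.62). The 50 ppm effect differed between harvests, by limma over all genes, for Pdia4 (1.30) and Sdf2l1 (0.90).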

How the results depend on the processing

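On the probe set used for each gene, no call of the 10 genes changed sign under any alternative run. Other probe sets of a gene were not followed in these runs, and the dim Pdia4 probe set, given above, was called the opposite way. Values below are the number of the 10 called by limma, and causes were not tested. The 50 ppm comparison at 12 weeks fell from 1 to 0 with an offset of 1, quantile normalization, no filter, all probe sets, and a poly-A, hybridization, RNA integrity, smooth muscle, plasma cell or fibroblast covariate. The 10 ppm comparison at 12 weeks fell to 0, and both slopes at 12 weeks from 2 to 0, with a poly-A or hybridization covariate, and the F test at 12 weeks fell to 1 and 0 with them. The F test fell to 1, and the slope without water to 0, with a superficial urothelium covariate. The slope without water fell to 1 with a plasma cell or fibroblast covariate. The difference between harvests fell to 1 with quantile normalization, no filter, and a poly-A or liver covariate. The water contrast fell from 3 to 0 with a liver covariate. Rises at 12 weeks and between harvests came from Hspa5 and Atf4. The water contrast rose to 4 (with Hspa5) with the 60th percentile filter, array weights and a poly-A or plasma cell covariate. With a hybridization or smooth muscle covariate it stayed at 3, with Hspa5 in place of Creld2. Both slopes at 12 weeks rose to 3 (with Hspa5) with array weights, as did the slope over all doses with a superficial urothelium covariate, and the difference between harvests rose to 3 with array weights (Atf4) or a hybridization covariate (Hspa5). At 1 week the F test rose from 0 to 1 with quantile normalization or a hybridization covariate, and to 3 with array weights or the RNA integrity covariate. The 50 ppm comparison rose to 1 (Pdia4) with these last 2. With RNA integrity the 10 ppm comparison rose to 2 (Hsp90b1 and Sdf2l1) and both slopes to 1 (Pdia4). Leaving out 1 array gave 0 to 1 at 10 ppm and for the slope at 1 week, 0 to 3 for the F test at 1 week, 0 to 1 at 10 and at 50 ppm after 12 weeks, 2 to 3 for the slope at 12 weeks, 1 to 3 for that without water, 2 to 4 for the water contrast and 1 to 4 for the difference between harvests. The fibroblast and superficial urothelium covariates, and leaving out arrays with an integrity number under 8, were chosen after seeing the data.

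Replicate numbers did not pair mice: same-numbered mice had a mean r of -0.0101 at 1 week and 0.0181 at 12 weeks, and 4 of 24 and 8 of 25 arrays correlated best with their own number. With a replicate block, 1 gene was called at 10 ppm and 1 at 50 ppm after 12 weeks, and 2 by the F test, each slope and the difference between harvests. As coded, the water contrast of this fit is the fitted difference at replicate 1 of each harvest. It is not the difference over all water mice, so its values cannot be set against the main fit. It called 2 genes, Pdia4 (-1.11) and Sdf2l1 (-1.49), and not Creld2 (-0.44, adjusted p 0.105 in limma). Among all genes tested it called 262, and the main contrast 1953. With 4 or 5 arrays a group, small changes of a dim gene cannot be resolved.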

Other observations

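The F test over the 5 doses at 12 weeks called 7 of the 100 further list genes, beside 4.94% of all genes. One of them was Creb3l1, which encodes an ER-bound transcription factor (adjusted p 0.00192 in limma). Its 12-week means were 9.15 in water, 9.63 at 0.5 ppm, 9.20 at 2 ppm, 8.43 at 10 ppm and 9.06 at 50 ppm. The 5 arrays at 10 ppm lay between 8.31 and 8.58, below every water array (8.69 to 9.61). Of all genes, 3.2% did not overlap in that comparison, and Creb3l1 was not called in it. The fibroblast marker mean was also lowest at 10 ppm (12.86) and highest at 0.5 ppm (13.39) among the 12-week groups, and its part in these values was not tested. Kdelr3, which fell most between the water groups, had means between 8.62 and 8.98 at all 5 doses of the 12-week harvest and between 10.10 and 10.56 at 1 week.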
